A study of Mus musculus with 2 samples.

Results

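Type I interferon-stimulated genes are described here as a set of 32 named genes, chosen by symbol from a list and all found among the 31253 genes of the deposited single-cell count matrices. The study sorted viable CD45+ leukocytes out of tumours grown from MB49, a mouse bladder cancer cell line, and made 2 libraries. The hosts were female mice that had been lethally irradiated and given male bone marrow, either wild type (the wt library) or Lcn2-deficient (the library labelled Lcn2-ko). Marrow-derived cells of the second library should therefore lack Lcn2, which encodes the iron-siderophore binding protein lipocalin 2, while tumour and radioresistant host cells keep the gene in both. The labels name 1 library per genotype and no separate animals, so there is no replicate, no test and no p-value. All intervals below are 95% intervals. Those of levels and ratios cover the counting of UMIs only, a UMI being a tag that marks 1 captured transcript molecule. Those of shares of cells treat the cells of 1 library as independent draws. None of them covers differences between animals or libraries.

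Type I interferons signal through the receptor chains Ifnar1 and Ifnar2 and the kinases Jak1 and Tyk2 to a complex that holds Stat2 and Irf9. That complex binds the interferon-stimulated response element in the promoters of its targets, which encode sensors of foreign nucleic acid, enzymes and binding proteins that block viral replication, and regulators of the response itself. Many of these genes also respond to interferon gamma or directly to the transcription factors that induce interferon, so their level is a readout of several inputs.

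RefSeq promoter windows, from 250 bases before to 50 bases after a gene's start on the GRCm38.p6 build, were given for 25 of the 32 genes. The core of the response element, read on either strand as GAAA, any 2 bases and GAAA again, was in a window of 13 of these 25 genes (52%), against 3.99% of all 27025 genes with a window and 3.44% of all 32851 windows of that length. The core of the gamma-activated site, TTCNNNGAA, was in 4 of 25 (16%), against 9.55% of those genes and 8.30% of the windows. The stretches below are shown because the values of these genes carry the comparisons that follow. Capitals mark the response element core or its reverse complement, and each sequence runs 5′ to 3′ on the strand of its gene.
Isg15: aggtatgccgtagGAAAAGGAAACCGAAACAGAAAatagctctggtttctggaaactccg
Rsad2: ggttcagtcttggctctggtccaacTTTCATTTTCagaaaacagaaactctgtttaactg
Ifit1: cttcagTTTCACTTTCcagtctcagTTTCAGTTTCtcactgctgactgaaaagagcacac
Ifit3: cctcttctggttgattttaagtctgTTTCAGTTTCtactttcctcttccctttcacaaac
Ifit3b: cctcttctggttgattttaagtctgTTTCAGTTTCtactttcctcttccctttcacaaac
Stat2: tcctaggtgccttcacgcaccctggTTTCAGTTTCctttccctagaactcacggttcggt
The Isg15 stretch is chr4:156200850-156200909 on the minus strand and holds 3 overlapping cores. The Rsad2 stretch is chr12:26456538-26456597 on the minus strand. The Ifit1, Ifit3 and Ifit3b stretches are chr19:34640779-34640838, chr19:34583382-34583441 and chr19:34607778-34607837, all on the plus strand, and those of Ifit3 and Ifit3b are identical over the 60 bases shown. The Stat2 stretch is chr10:128270251-128270310 on the plus strand. No core was found in the windows of Slfn4, Ifi47, Ifit2, Oasl1, Oasl2 or Epsti1, which says only that these letters are not in those 300 bases. Several of the 32 genes are neighbours. The 5 Ifit genes lie together on chromosome 19, Rsad2 and Cmpk2 are 12752 bases apart on chromosome 12, and Dtx3l and Parp9 overlap by 681 bases on opposite strands of chromosome 16. Transcripts of Ifit3 and Ifit3b were 98% identical over 1697 aligned bases, so reads could be split between them and their separate values are uncertain.

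The wt library held 7974 barcodes and 42069099 UMIs, and the library labelled Lcn2-ko 7788 barcodes and 40959725 UMIs. After cell filters 7397 and 7209 cells remained, and 4 barcodes occurred in both libraries. The 32 genes took 0.196% of all UMIs in wt and 0.186% in the other library. Cells were placed in a class by marker genes, which left 457 and 410 cells with markers of more than 1 class and 510 and 483 with none. The leading genes of each compared class included its own markers and no marker of another class. Since the gate used these same markers, this is no independent check of the classes. In neutrophils Lcn2 was at 156 CPM (counts scaled to 1000000 UMIs of the class; 222 UMIs) in wt and 104 CPM (91 UMIs) in the Lcn2-ko-labelled library. It went the other way in tumour or stromal cells (18.7 and 25.8 CPM) and T cells (11 and 30 UMIs), and over all kept cells it was at 16.7 and 15.6 CPM. Lcn2 transcripts were thus present in neutrophils of both libraries, so presence of the gene's RNA does not tell the libraries apart, and which part of the gene was deleted is not given in the sources used here. Although the sort was for CD45, 1742 and 1574 cells were classed by tumour or stromal markers such as Col1a1 and Krt18, and only 175 and 177 of them had a UMI of Ptprc, which encodes CD45. A Ptprc UMI was found in 61.5% and 57.1% of neutrophils and in 91.2% and 90.6% of T cells. The cells with tumour or stromal markers are kept below as a class of their own, called tumour or stromal cells, and Ptprc was not used in the gate. In the 1567 and 1397 cells of the class with no Ptprc UMI, a division made after seeing the data, the 32 genes were at 1897 and 2109 CPM (log2 ratio 0.15), Isg15 had a ratio of -0.52 and Rsad2 of 0.62.

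The summed level of the 32 genes differed far more between cell classes than between the libraries. Neutrophils, short-lived phagocytes, had the highest level of the 6 classes with at least 100 cells per library. The 32 genes summed to 8080 CPM (7933 to 8229, 681 cells) in wt and 7418 CPM (7239 to 7601, 452 cells) in the Lcn2-ko-labelled library. Monocyte-macrophages followed at 2557 (2497 to 2618, 363 cells) and 2048 CPM (1998 to 2099, 436 cells). Tumour or stromal cells were next at 1914 (1893 to 1935) and 2144 CPM (2121 to 2168). Monocyte-macrophages were thus above tumour or stromal cells in wt and below them in the Lcn2-ko-labelled library. The second order was not stable, since thinned to 800 UMIs per cell the 2 classes of that library were at 2299 and 2199 CPM, and as means over cells at 2397 and 2248 CPM. T cells were at 1201 and 1171 CPM, dendritic cells at 1119 and 1286, and NK cells at 1084 and 1051. The intervals of dendritic and NK cells overlapped in wt, 1083 to 1155 and 1006 to 1166 CPM. Plasmacytoid dendritic cells, a cell type known for making type I interferon, numbered 3 and 15 and were at 2045 and 2358 CPM. In wt neutrophils Slfn4 and Rsad2 alone gave 2056 and 1961 of the 8080 CPM, and Slfn4 was among the leading genes of that class by fold. Other members, Bst2, Zbp1 and Dtx3l among them, were highest in tumour or stromal cells of the 6 classes.

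**Figure D1:**
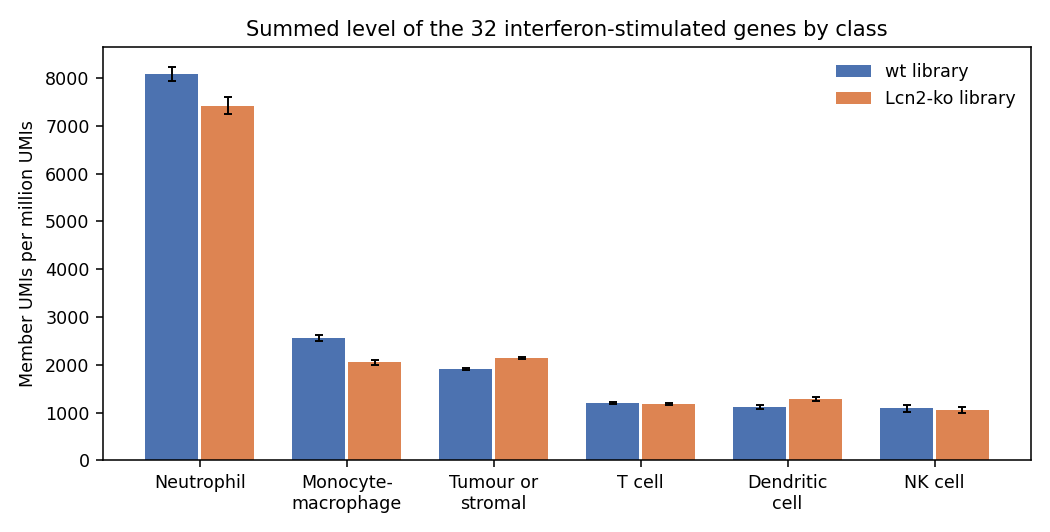
Summed level of the 32 genes in CPM (y axis) by class, for the wt and the Lcn2-ko library, with exact Poisson 95% intervals that cover counting error only. The neutrophil bars stand at 8080 and 7418 CPM, above those of the other 5 classes.

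The level was 0.20 (0.13 to 0.27) higher on the log2 scale in dendritic cells and 0.16 (0.14 to 0.19) higher in tumour or stromal cells of the library labelled Lcn2-ko than in wt. It was 0.32 lower in monocyte-macrophages (log2 ratio -0.32, -0.37 to -0.27) and 0.12 lower in neutrophils (-0.12, -0.17 to -0.08). T cells (-0.037, -0.074 to -0.00055) and NK cells (-0.045, -0.19 to 0.098) were close to 0, and the interval of T cells held 0 under the stricter gate (-0.00998, -0.049 to 0.029) and under most other settings. The ratio in monocyte-macrophages was alike in cells with at least 5 UMIs of the C1q genes, a macrophage marker (-0.32), and in those with fewer (-0.33). Among dendritic cells it was 0.47 (0.31 to 0.64) in those with Ccr7 and Fscn1, markers of mature migrating cells. These were only 59 cells in wt and 67 in the other library, under the 100 cells per library of the compared classes. In dendritic cells with Xcr1 or Clec9a, markers of the cross-presenting type, the ratio was 0.21, from 242 and 126 cells. Among T cells the ratio was -0.17 (-0.23 to -0.11) in CD8 T cells and 0.13 (0.06 to 0.20) in regulatory T cells. The value near 0 for all T cells is thus a sum of parts that differ in sign.

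Gene by gene, members counted as measured in a class when they reached 20 CPM in 1 library or the other and 20 UMIs in total, and as higher or lower from a ratio of 1.5-fold on. In neutrophils 28 members were measured, and 3 were higher in the library labelled Lcn2-ko and 1 lower. The higher ones were Ifi47, Ifit2 and Stat2 and the lower one Isg15. The ratio of Ifit2 was 0.41 (-0.098 to 0.91), under the limit, without the cell of each library with the most Ifit2. Of all 5218 genes measured there, 9.51% were higher and 6.11% lower by the same limit, so these counts are near the background. In monocyte-macrophages 0 of 25 measured members were higher and 7 lower, against 1.52% and 2.84% of all measured genes. These 7 were Isg15, Ifit2, Ifit1, Ifih1, Slfn4, Herc6 and Rsad2. In dendritic cells 5 of 17 were higher and 0 lower, against 2.26% and 3.11%, the 5 being Rsad2, Ifi47, Zbp1, Parp14 and Herc6. In tumour or stromal cells 1 of 26 was higher and 0 lower, against 0.431% and 0.55%. In T cells 0 of 19 were higher and 1 lower, against 0.6% and 0.632%. In NK cells 0 of 12 were higher and 4 lower, against 7.83% and 8.02%, and those 4 (Slfn5, Zbp1, Eif2ak2 and Stat2) rest on few UMIs. The counts depended on the cells taken. With classes from clusters 2 members were higher and 4 lower in neutrophils, the opposite balance, and in neutrophils with Ptprc 6 were higher and 2 lower. In monocyte-macrophages 0 were higher and 4 lower in cells with Ptprc, and 2 higher and 5 lower after thinning each cell to 800 UMIs. Thinning left 2 members past the limit in dendritic cells and 0 in NK cells, but it also leaves fewer UMIs with which to reach 20. The shares over all genes are given for the main setting only, so the counts under other settings stand without a background. The median log2 ratio of the measured members was 0.15 in neutrophils, -0.16 in monocyte-macrophages, 0.28 in dendritic cells, 0.12 in tumour or stromal cells, -0.01 in T cells and -0.07 in NK cells. Over all measured genes of each class it lay between -0.03 and 0.05. In neutrophils the median of the members and their summed level thus differed in sign, since the most abundant members were lower and most others higher. Ifit1bl1 and Trim30c did not pass the limits in any of the 6 classes.

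**Figure D2:**
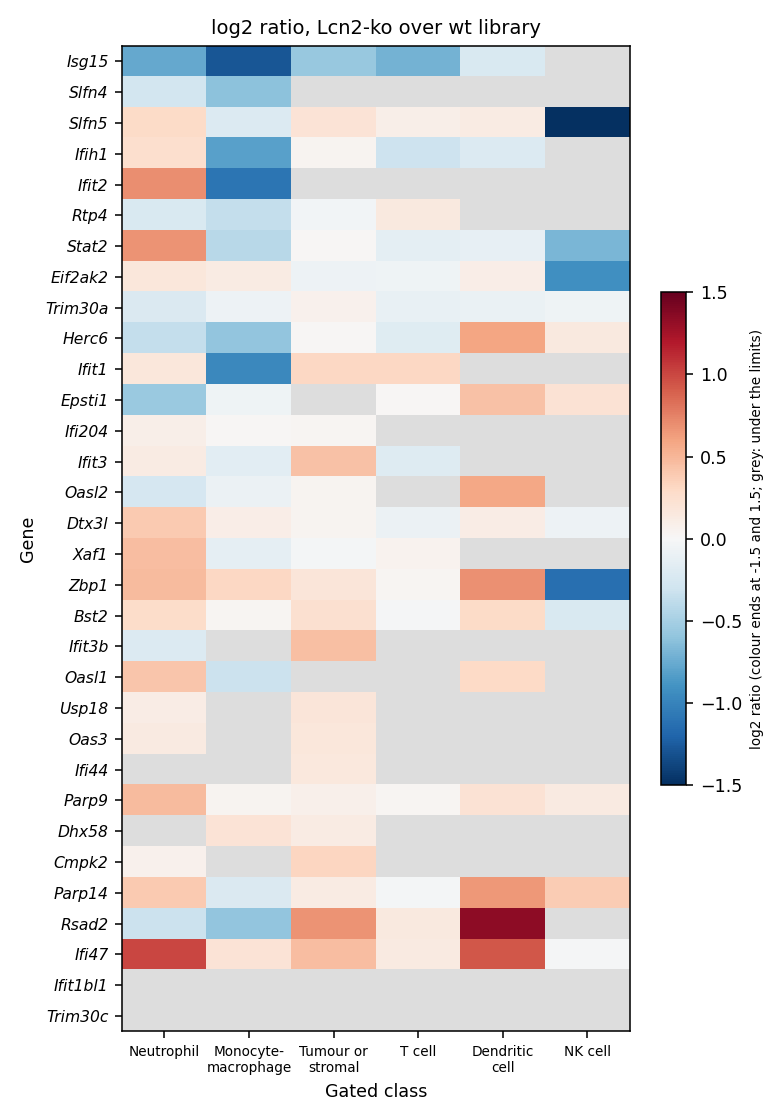
Log2 ratio of the Lcn2-ko over the wt library for each of the 32 genes (y axis) in 6 classes (x axis), blue for lower and red for higher in the Lcn2-ko library, grey where the gene did not pass the limits of 20 CPM and 20 UMIs. Isg15 is blue in the 5 classes where it was measured, and Ifit1 and Ifit2 are blue in monocyte-macrophages only.

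Isg15 encodes a small ubiquitin-like protein that is attached to other proteins or secreted, Herc6 its ligase in mice and Usp18 the protease that removes it. In each of the 5 classes where it was measured, Isg15 had a lower level in the Lcn2-ko library than in wt. In neutrophils it was at 713 CPM (1012 UMIs) in wt and 421 CPM (369 UMIs), a log2 ratio of -0.76 (-0.94 to -0.59). In monocyte-macrophages it was at 308 CPM (829 UMIs) and 127 CPM (393 UMIs), the lowest ratio of the members there at -1.28 (-1.46 to -1.11). In T cells it was at 52.5 and 32.05 CPM (-0.71, -0.92 to -0.51), and in tumour or stromal cells at 58.8 and 39.8 CPM (-0.56, -0.71 to -0.41). In dendritic cells it was at 53.9 and 45.9 CPM, with an interval that holds 0 (-0.23, -0.59 to 0.12). The value in dendritic cells depended on the gate, at 0.19 (-0.30 to 0.68) under the stricter one, -0.64 (-1.01 to -0.29) with classes from clusters and -0.48 (-0.87 to -0.087) in cells with Ptprc. NK cells had only 10 and 11 UMIs. The intervals of the levels did not overlap between the libraries in neutrophils, monocyte-macrophages, T cells and tumour or stromal cells.

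Over all kept cells Isg15 was at 124 and 63.6 CPM (log2 ratio -0.96), and only 9 of the 6893 measured genes had a lower ratio. Among these 9, named after their values were seen, were the heat shock genes Hspa1a (-1.61) and Hspa1b (-1.45) and the ribosomal protein genes Rps19 (-1.09) and Fau (-0.98). The neutrophil markers G0s2 (-1.11) and Retnlg (-1.02) were among them too, beside 681 and 452 gated neutrophils. Isg15 was most abundant in neutrophils of the 6 classes, and the part of cell numbers in its ratio over all kept cells was not tested. Rps19 was lower by a nearly equal amount in each of the 6 classes, from -1.21 in dendritic cells to -1.08 in T cells, tumour or stromal cells included (-1.09). The ratio of Isg15 ranged more widely than that of Rps19 over the 5 classes where it was measured, from -1.28 to -0.23. So did the ratio of Hspa1a over the 6 classes, from -2.06 in NK cells to -0.65 in neutrophils. A wide range was thus not particular to Isg15. A link between the values of these genes and that of Isg15 was not tested. Without Isg15 the other 31 genes together had a log2 ratio of -0.02 over all kept cells, -0.07 in neutrophils, -0.23 (-0.28 to -0.17) in monocyte-macrophages, 0.22 in dendritic cells and 0.18 in tumour or stromal cells. Of the Isg15 enzymes, Herc6 was at 31.3 and 20.7 CPM in monocyte-macrophages (-0.60, -1.09 to -0.11) and at 80.4 and 62.7 CPM in neutrophils (-0.36, -0.85 to 0.12). It was at 15.2 and 23.0 CPM in dendritic cells (0.59, 0.02 to 1.17). Usp18 passed the limits only in neutrophils, at 44.4 and 47.9 CPM, and in tumour or stromal cells, at 28.1 and 31.7 CPM.

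**Figure D3:**
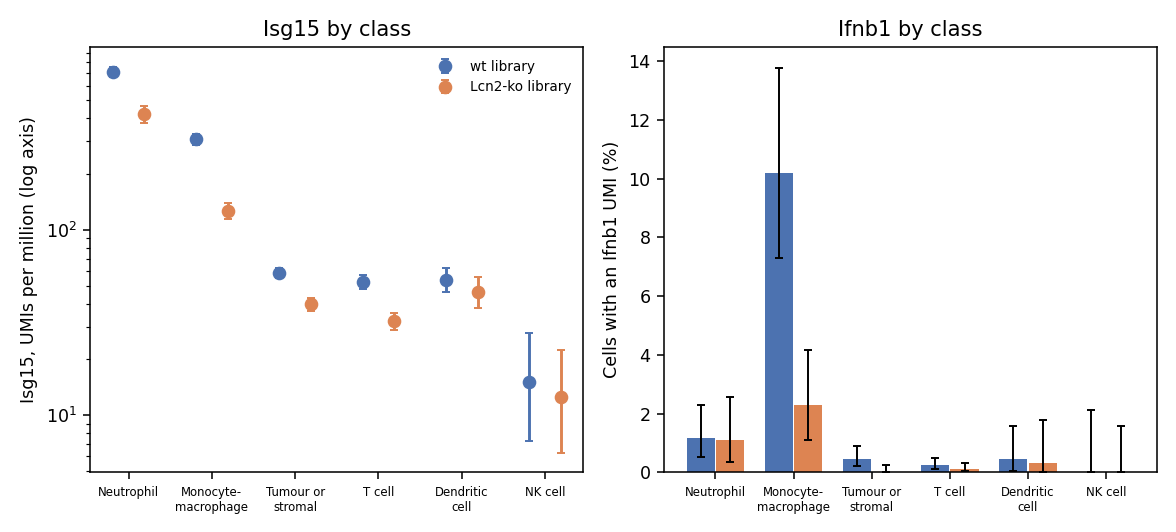
Left, Isg15 in CPM (log axis) by class and library with exact Poisson 95% intervals; right, percent of cells with an Ifnb1 UMI by class and library with exact binomial 95% intervals. Isg15 is lower in the Lcn2-ko library from neutrophils (713 and 421 CPM) to T cells, and Ifnb1 stands out in wt monocyte-macrophages at 10.2% of cells.

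The Ifit proteins bind viral RNA ends and block translation. In monocyte-macrophages Ifit1 was at 67.7 CPM (182 UMIs) in wt and 34.6 CPM (107 UMIs) in the library labelled Lcn2-ko, a log2 ratio of -0.97 (-1.33 to -0.62). Ifit2 was at 52.5 CPM (141 UMIs) and 24.6 CPM (76 UMIs), a ratio of -1.10 (-1.52 to -0.68), or -0.48 (-1.48 to 0.50) after thinning. Ifit3 there was at 35.7 and 31.99 CPM (-0.16, -0.58 to 0.26), so neighbouring genes of the family were not lower to the same degree. In neutrophils Ifit2 was instead higher in the library labelled Lcn2-ko, 57.1 and 92.3 CPM with 81 UMIs in each (0.69, 0.23 to 1.16; 0.57, -0.26 to 1.39, after thinning), while Ifit1 was at 266 and 299 CPM (0.17, -0.06 to 0.40). In tumour or stromal cells Ifit1 was at 58.5 and 72.7 CPM (0.31), Ifit3 at 82.5 and 112 CPM (0.44) and Ifit3b at 16.8 and 23.0 CPM (0.45). In T cells Ifit1 was at 19.3 and 24.0 CPM (0.31, 0.03 to 0.59) and Ifit3 at 24.1 and 21.1 CPM (-0.19, -0.46 to 0.08).

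Rsad2 encodes viperin, an enzyme that makes a chain-terminating nucleotide, and Cmpk2 the kinase that supplies its substrate. The Oas family senses double-stranded RNA, Oasl1 and Oasl2 are Oas-like relatives, and Eif2ak2 encodes the RNA-activated kinase PKR. Rsad2 was among the most abundant members in neutrophils, at 1961 CPM (2782 UMIs) in wt and 1574 CPM (1381 UMIs) in the Lcn2-ko-labelled library (-0.32, -0.41 to -0.22). It was lower in monocyte-macrophages too, at 300 and 199 CPM (-0.59, -0.75 to -0.44). In tumour or stromal cells it was higher, at 98.0 CPM (1597 UMIs) and 156 CPM (2354 UMIs; 0.67, 0.58 to 0.76), and this was the 1 member past 1.5-fold in that class. In dendritic cells it was at 10.5 and 26.7 CPM, from 36 and 64 UMIs (1.34, 0.73 to 1.97). Rsad2 thus had ratios of opposite sign in the phagocytes and in the dendritic and tumour or stromal cells, with intervals that did not reach 0 at the main setting. Thinned to 800 UMIs per cell, its ratio in monocyte-macrophages was -0.33 (-0.77 to 0.11), with an interval that held 0. T cells had 30.7 and 33.9 CPM. Oasl1 was at 191 and 152 CPM in monocyte-macrophages (-0.33, -0.51 to -0.14) and at 209 and 279 CPM in neutrophils (0.42, 0.17 to 0.66). Cmpk2, next to Rsad2 on the chromosome, was at 52.2 and 54.7 CPM in neutrophils. Eif2ak2 was at 47.8 and 45.5 CPM in tumour or stromal cells (-0.07, -0.22 to 0.08) and had 20 and 14 UMIs in NK cells (-0.93, -2.02 to 0.13).

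Among the sensors, Ifih1 encodes MDA5, a receptor for long double-stranded RNA. It was at 144 CPM (387 UMIs) and 81.7 CPM (253 UMIs) in monocyte-macrophages, a log2 ratio of -0.82 (-1.05 to -0.58). In T cells it was at 32.8 and 26.4 CPM (-0.31, -0.55 to -0.07), and in dendritic cells at 24.6 and 21.3 CPM (-0.21, -0.74 to 0.31). Dhx58, which encodes the related regulator LGP2, had 49 and 65 UMIs in monocyte-macrophages (0.20, -0.35 to 0.77). Zbp1, a sensor of Z-form nucleic acid that can start necroptosis, went the other way from Ifih1 in monocyte-macrophages, at 62.5 and 77.2 CPM (0.31, 0.01 to 0.60). In dendritic cells Zbp1 was at 17.9 and 28.8 CPM (0.69, 0.17 to 1.21), and in tumour or stromal cells, where it was most abundant, at 125 and 141 CPM (0.18, 0.09 to 0.27, but -0.082 after thinning). NK cells had 33 and 20 UMIs of it (-1.13, -2.01 to -0.29). Ifi204, of the DNA-binding p200 family, had 289 and 308 CPM in neutrophils and 136 and 137 CPM in monocyte-macrophages.

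Stat2 is a part of the signalling complex that interferon gamma signalling does not need. It was at 66.3 CPM (94 UMIs) and 106 CPM (93 UMIs) in neutrophils (0.68, 0.25 to 1.11), and at 75.1 and 56.2 CPM in monocyte-macrophages (-0.42, -0.72 to -0.12). In dendritic cells it was at 96.7 and 88.9 CPM (-0.12, -0.38 to 0.13). Parp9 and Dtx3l form a complex that modifies histones and ubiquitin, and Parp14 is a related ADP-ribosyltransferase. Their summed UMIs had ratios of 0.41 (0.17 to 0.65) in neutrophils and 0.22 (0.03 to 0.41) in dendritic cells, and of -0.01 in monocyte-macrophages. Dtx3l was among the most abundant members in tumour or stromal cells (180 and 185 CPM) and in T cells (127 and 120 CPM). Parp14 was at 19.3 and 30.5 CPM in dendritic cells (0.66, 0.16 to 1.16).

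The Schlafen genes regulate the growth of immune cells, and Slfn4 is known for its expression in myeloid cells. Slfn4 was the most abundant member in neutrophils, at 2056 CPM (2916 UMIs) and 1705 CPM (1496 UMIs; -0.27, -0.36 to -0.18). In monocyte-macrophages it was at 83.3 and 54.6 CPM (-0.61, -0.91 to -0.32), and in the other 4 classes it did not pass the limits. Over all kept cells it was at 107 and 64.2 CPM (-0.74), a larger difference than in either class, beside 681 and 452 gated neutrophils. Slfn5 was at 231 and 282 CPM in neutrophils, at 143 and 155 CPM in dendritic cells, and had only 16 and 5 UMIs in NK cells (-2.09, -3.89 to -0.57). Trim30a, a restraint on inflammatory signalling, was at 366 and 316 CPM in neutrophils (-0.21), at 151 and 140 CPM in dendritic cells and at 112 and 107 CPM in NK cells.

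Ifi47 encodes an interferon-induced GTPase that also answers to interferon gamma. It was at 135 CPM (192 UMIs) and 271 CPM (238 UMIs) in neutrophils, the highest ratio of the members there at 1.00 (0.72 to 1.29). In dendritic cells it was at 19.0 and 36.3 CPM (0.93, 0.45 to 1.42), in tumour or stromal cells at 101 and 140 CPM (0.47, 0.37 to 0.56), and in monocyte-macrophages at 85.2 and 98.2 CPM (0.21, -0.05 to 0.46). T cells had 111 and 122 CPM (0.14, 0.02 to 0.26) and NK cells 104 CPM in both. Bst2, the tetherin that holds budding virus at the cell surface, was the most abundant member in tumour or stromal cells, at 187 and 220 CPM (0.24, 0.16 to 0.31). Epsti1 was the most abundant member in NK cells (342 and 397 CPM), T cells (199 and 202 CPM) and dendritic cells (173 and 235 CPM; 0.44, 0.27 to 0.61), and in neutrophils it was at 85.3 and 58.1 CPM (-0.55, -1.05 to -0.07). Rtp4, a chaperone of membrane receptors, was at 48.3 and 47.0 CPM in tumour or stromal cells and at 20.4 and 22.5 CPM in T cells.

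The level also varied among the cells of a class. In neutrophils the median cell had a summed level of 5047 CPM, scaled to its own UMIs, in wt and 4076 CPM in the Lcn2-ko-labelled library. The highest cells had 128614 and 70330 CPM. Since depth differed between cells, each cell was also thinned to 800 UMIs, leaving out 59 and 63 shallower neutrophils. At that depth 28.6% (25.1 to 32.3) and 31.4% (26.8 to 36.2) of neutrophils held at least 5 of the 32 genes, against 48.3% and 46.5% unthinned. For monocyte-macrophages the thinned shares were 11.2% (8.10 to 14.9) and 6.06% (3.997 to 8.75), against 74.4% and 65.8% unthinned. In tumour or stromal cells they were 4.81% and 5.15%, and in T cells 1.69% and 1.81%.

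**Figure D4:**
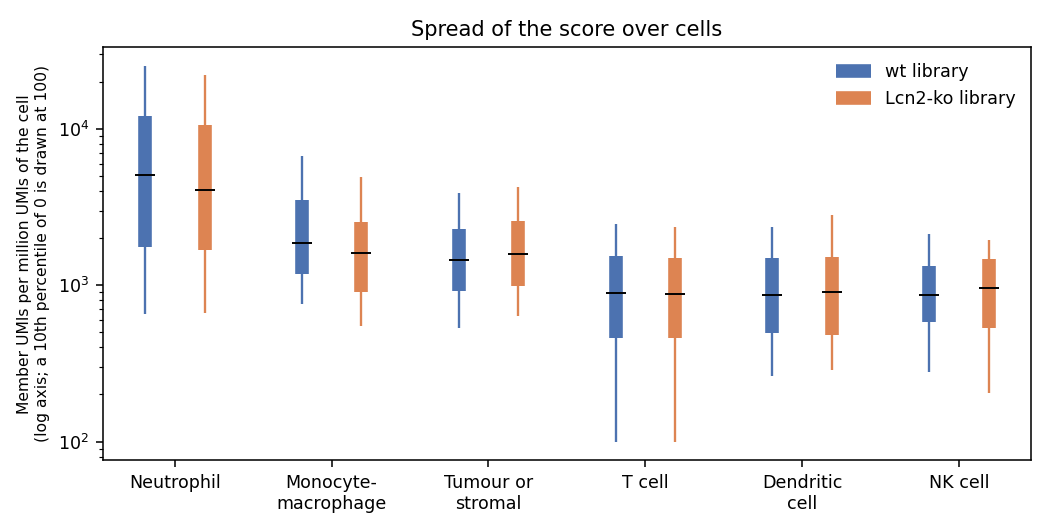
Summed level of the 32 genes in CPM of each cell's own UMIs (log axis) by class and library. Thin lines run from the 10th to the 90th percentile of cells, thick bars from the 25th to the 75th, and the black mark is the median, 5047 and 4076 CPM in neutrophils; a 10th percentile of 0 is drawn at 100.

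Around the 32 genes, 91 further gene symbols of the pathway were listed and 85 found. Not found were Mx1, Mx2 and Mnda, and also Mb21d1, Tmem173 and Rigi, which are other symbols of the found Cgas, Sting1 and Ddx58. Of the ligands only Ifnb1, which encodes interferon beta, passed the limits in a compared class. In monocyte-macrophages it had 75 UMIs in 37 of 363 cells in wt (27.9 CPM, 21.9 to 35.0) and 11 UMIs in 10 of 436 cells in the library labelled Lcn2-ko (3.55 CPM, 1.77 to 6.36). The log2 ratio was -2.97 (-4.04 to -2.05), and it stayed between -3.72 and -2.50 under 6 other settings of cells and gates, chosen after seeing the data. The shares of cells with a UMI were 10.2% (7.28 to 13.8) and 2.29% (1.11 to 4.18) in cells with a median of 6830 and 5812 UMIs. T cells, which are not known as a source, had a UMI in 0.241% and 0.125% of cells at 2701 and 2801 UMIs. Cells with markers of more than 1 class held 108 and 25 further UMIs, in 10.1% and 3.66% of them. After thinning, 9 of 358 and 1 of 429 monocyte-macrophages kept an Ifnb1 UMI. In wt the monocyte-macrophages with an Ifnb1 UMI had 3501 CPM of the 32 genes and those without 2427 CPM, at medians of 8431 and 6760 UMIs. In the library labelled Lcn2-ko the values were 2009 and 2050 CPM. The wt cells with at least 5 C1q UMIs gave 2590 and 2280 CPM, from 30 cells with Ifnb1. Those with fewer C1q UMIs gave 15490 and 3026 CPM, from only 7 cells with Ifnb1. The monocyte-macrophages with the most Ifnb1 held 12 UMIs in wt and 2 in the other library. In neutrophils Ifnb1 had 17 and 8 UMIs (12.0 and 9.12 CPM).

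In the receptor and signal chain 0 measured genes were past 1.5-fold in each of the 6 classes. Among sensors and inducers 2 of 6 measured genes were lower in neutrophils, Sting1 (-0.64, -1.41 to 0.078), whose interval held 0, and Irf7, against 6.11% of all genes measured there. Irf7, the factor that amplifies interferon production, was at 65.6 and 39.9 CPM there (-0.72, -1.32 to -0.14), at 43.7 and 28.0 CPM in dendritic cells (-0.64) and at 50.2 and 37.8 CPM in monocyte-macrophages (-0.41, -0.78 to -0.04). In tumour or stromal cells Irf7 was at 33.4 and 28.7 CPM (-0.22, -0.40 to -0.03). Irf7 and Isg15 thus both had ratios below 0 in neutrophils, monocyte-macrophages, dendritic cells and tumour or stromal cells, though the interval of Isg15 held 0 in dendritic cells. In T cells Irf7 was at 17.9 and 20.8 CPM (0.21, -0.082 to 0.51), with an interval that held 0, while Isg15 was lower. Of 3 measured restraint genes none passed the limit in neutrophils, monocyte-macrophages, dendritic cells, T cells or tumour or stromal cells; Socs3, a feedback inhibitor of cytokine receptors, was at 426 and 304 CPM in tumour or stromal cells (-0.49, -0.54 to -0.43).

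Of 40 other type I interferon-stimulated genes in the files, 33 were measured in neutrophils, where 9 were higher and 1, Ifi35, lower (-1.15), with a median of 0.26, against 9.51% higher and 6.11% lower of all genes measured there. Their summed ratio there was 0.28, but -0.049 with classes taken from clusters. In monocyte-macrophages 1 of 30 was higher, Helz2 (0.73), and 2 lower, Cxcl10 and Znfx1 (median -0.044). Of all genes measured in that class 1.52% were higher and 2.84% lower. The chemokine gene Cxcl10 was at 894 and 530 CPM in monocyte-macrophages (-0.76, -0.85 to -0.66). It was at 364 and 572 CPM in neutrophils (0.65, 0.47 to 0.83) and at 315 and 407 CPM in tumour or stromal cells (0.37, 0.32 to 0.42). Of 14 genes that lean towards interferon gamma, 8 of 11 measured in neutrophils were higher and 0 lower (median 0.77), among them Gbp2 at 192 and 402 CPM (1.06, 0.83 to 1.30), a guanylate-binding protein. Over all genes measured in neutrophils 9.51% were higher and 6.11% lower. The summed ratio of the list there was smaller than its median, at 0.27 (0.19 to 0.35), and 0.18 under the stricter gate. In tumour or stromal cells 3 of 10 were higher, Cxcl9, Gbp2 and Igtp, and 0 lower (median 0.44). Of all genes measured there 0.431% were higher and 0.55% lower. Cxcl9 was at 156 and 322 CPM (1.05, 0.98 to 1.12) in that class. In monocyte-macrophages 0 of 11 were higher and 1, Gbp5, lower (median 0.031), against 1.52% and 2.84% of all measured genes. The summed ratio of this list in tumour or stromal cells was 0.61 (0.58 to 0.64), beside 0.18 for the 31 members other than Isg15.

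**Figure D5:**
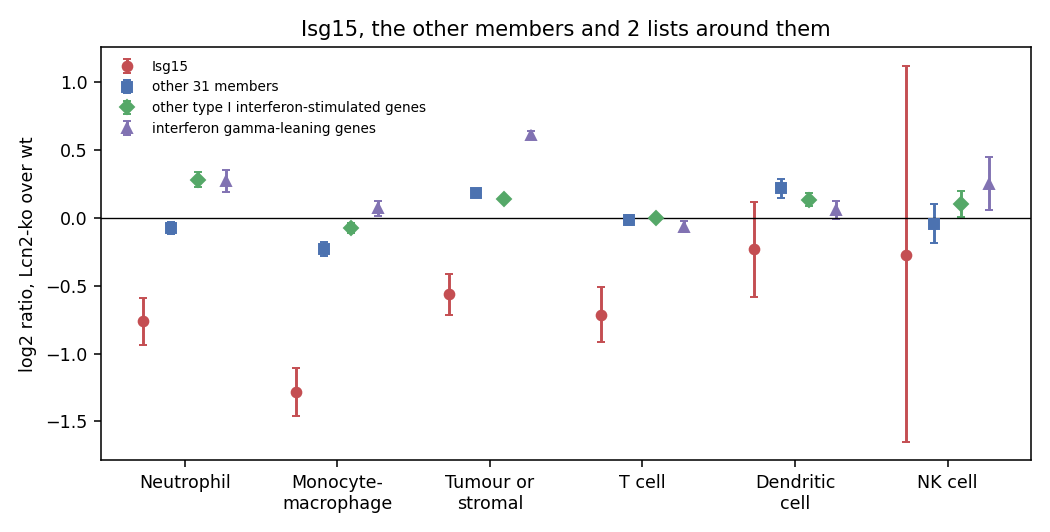
Log2 ratio of the Lcn2-ko over the wt library (y axis) by class for Isg15, for the other 31 members together, and for the summed UMIs of 2 lists around them, with exact 95% intervals for counting error only. Isg15 lies below the other 31 members in each class, and the interferon gamma-leaning list reaches 0.61 in tumour or stromal cells.

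Other values also differed between the libraries, some of them against the direction of the score. Summed markers of neutrophils in the neutrophil class were at 17265 and 15906 CPM (-0.12), the same ratio as the score, and 11 of 11 monocyte-macrophage markers had UMIs there, at 911 and 1159 CPM in sum (0.35). Tumour or stromal markers in neutrophils summed to 357 and 230 CPM. In monocyte-macrophages the sums of neutrophil markers were 1671 and 1640 CPM, nearly equal, while those of dendritic cell markers were 471 and 281 CPM (-0.74), with 9 of 9 detected. Dendritic cells had 510 and 689 CPM of neutrophil markers, and tumour or stromal cells 79.4 and 113 CPM of T cell markers. Hspa1a and Hspa1b together, which heat and tissue digestion can induce, were at 2433 and 876 CPM in monocyte-macrophages (-1.47) and at 351 and 176 CPM in tumour or stromal cells (-0.997). Their ratio was also below 0 in neutrophils (-0.61), dendritic cells (-1.31), T cells (-1.88) and NK cells (-1.99). A list of 12 dissociation and heat shock genes had a ratio of -0.39 in monocyte-macrophages, -0.29 in neutrophils, -0.45 in dendritic cells and 0.01 in tumour or stromal cells. Mitochondrial UMIs were 4.34% and 4.23% in monocyte-macrophages and 2.55% in neutrophils of both libraries. The part of these values in the differences above was not tested, and with 1 library per label genotype and library cannot be told apart.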

How the data were processed

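Single-cell RNA was captured on the BD Rhapsody system, and the deposited matrices hold counts, that is UMIs per gene and barcode, without normalisation. Cell Ranger and mm10 are named per the submitters' processing notes, with no version or role given. Groups follow the genotype label. The members, lists and rules were chosen with earlier results of these data known, and the gate limits and the list of 12 dissociation and heat shock genes after seeing values.

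Barcodes under 200 genes or over 20% mitochondrial UMIs were dropped. Scrublet (scanpy 1.11.5) marked 1 cell per library by its own threshold, so the top 4% of scores in each library were dropped in its place. A cell joined the class with the highest share of markers detected, given at least 3 of them, and counted as mixed when a second class with at least 3 reached over 0.75 of that share. Ptprc was in no gate. Clusters from leidenalg 0.10.2 served as an alternative, without the members and pathway genes. UMIs were summed per class and library and scaled to CPM. Intervals (scipy 1.17.1) are exact Poisson for levels, Clopper-Pearson for shares and exact conditional binomial for ratios. Coverage was checked for the ratios only, on Poisson counts simulated for neutrophils and T cells. Such counts follow the model of the interval and hold no clumping of UMIs in cells. The check thus cannot tell how the intervals fare where UMIs clump. The 95% intervals of levels and ratios cover counting error only, and those of shares treat the cells of a library as independent draws. UMIs tag transcript ends, so levels were not divided by gene length.

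Named with values in each class were the 3 members with the highest ratio, the 3 with the lowest, the 3 most abundant, and Isg15; others are named to cover each role, after their values were seen. Alternatives covered doublets, mitochondrial limit, depth, gate, clusters, Ptprc, cell means, abundance and fold limits, and left-out members. Gene positions are from GENCODE vM21 and promoter windows from RefSeq, both on GRCm38. No columns of other samples were present. The values of 1 gene of the signal chain are not reported here.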

Additional observations from a re-analysis of the deposited data

Results flagged for a closer look

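The summed level of the 32 genes differed in direction between classes under the same comparison of libraries. The log2 ratio of the library labelled Lcn2-ko over wt was -0.12 in neutrophils, -0.32 in monocyte-macrophages and -0.037 in T cells, and 0.20 in dendritic cells and 0.16 in tumour or stromal cells, each with a counting interval that did not hold 0. That of T cells ended at -0.00055, and it held 0 under the stricter gate (-0.00998, -0.049 to 0.029) and under most other settings. The difference between classes was not tested, since each label has 1 library.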

How the results depend on the processing

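No paired analysis was possible because each genotype label has 1 library. Of 73 recomputed score ratios, 53 moved by less than their counting interval. In neutrophils the ratio was -0.19 thinned to 800 UMIs, -0.26 under the stricter gate, -0.23 with classes from clusters, -0.22 as a mean over cells, -0.074 without Isg15 and -0.077 without the most abundant member, and it reversed to 0.15 as the median of members. In monocyte-macrophages it was -0.37 thinned, -0.39 from clusters, -0.23 without Isg15, -0.16 as the median of members and -0.38 without cells near the gate limit. In dendritic cells it was 0.30 thinned, 0.12 from clusters, 0.11 in cells with Ptprc and 0.28 as the median of members. In tumour or stromal cells it was 0.12 thinned, 0.22 in the 175 and 177 cells of the class with Ptprc, 0.15 in those with no Ptprc UMI (added after seeing the data), 0.20 as a mean over cells and 0.12 as the median of members. The cause was not tested.

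Counts of members past the limit in neutrophils (4 in all) were 7 thinned and 8 in cells with Ptprc, in monocyte-macrophages (7) 4 in cells with Ptprc, and in tumour or stromal cells (1) 3 in the cells of the class with Ptprc and 1 in those with none. In dendritic cells (5) they were 2 thinned, 3 under the stricter gate, 3 from clusters and 0 at 50 CPM, and in NK cells (4) 0 thinned, 1 from clusters and 0 at 50 CPM. At a limit of 2-fold, which calls fewer genes by construction, they were 1 in neutrophils, 0 in T cells, 2 in NK cells, 0 in tumour or stromal cells, 1 in dendritic cells and 2 in monocyte-macrophages. The members called in dendritic and NK cells at the main setting were all under 50 CPM in both libraries, so none could be counted at that limit. Thinning also leaves fewer UMIs with which to reach 20. No share over all genes is given beside the counts of these settings.

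Levels in CPM for wt and Lcn2-ko, thinned, were 10034 and 8808 in neutrophils, 2978 and 2299 in monocyte-macrophages, 1280 and 1223 in T cells, 1297 and 1597 in dendritic cells and 2024 and 2199 in tumour or stromal cells. Under the stricter gate they were 9522 and 7932 in neutrophils, 1053 and 1186 in dendritic cells and 1144 and 1136 in T cells. Without Isg15 and Bst2 they were 7321 and 6943 in neutrophils, 2144 and 1814 in monocyte-macrophages, 1097 and 1087 in T cells, 1027 and 1194 in dendritic cells and 1668 and 1884 in tumour or stromal cells.

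Of single genes, Zbp1 in tumour or stromal cells reversed to -0.082 when thinned. The list of other type I interferon-stimulated genes, 0.28 in neutrophils, reversed to -0.049 with classes from clusters, and in monocyte-macrophages, -0.076, to 0.0062 when thinned. The ratio of Isg15 was below 0 under each setting of cells and gates in neutrophils, monocyte-macrophages, T cells and tumour or stromal cells, and in dendritic cells under each but the stricter gate. It was below 0 in NK cells too, but Isg15 did not pass the limits there. It had 10 and 11 UMIs in that class (-0.27, -1.65 to 1.12), too few to read a direction. In NK cells, with 660544 and 878366 UMIs in all, 20 of 32 members did not pass the limits of level and UMIs, and in dendritic cells 15 did not.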
